A study of Mus musculus with 8 samples.

Results

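Calcium handling was described by 10 genes of the cardiomyocyte calcium cycle: Atp2a2, Pln, Sln, Ryr2, Casq2, Cacna1c, Slc8a1, Camk2d, Hrc and Jph2. For each gene, the probes named by one of its RefSeq transcripts were taken, and the brightest probe well above background on 4 or more of the 8 arrays stood for the gene. All 10 genes had such a probe, among 15152 genes with 1 in the whole data set. RNA came from tissue labeled as ventricles of male C57BL\6 mice, 4 with myocardial infarction (MI) and 4 sham-operated, 24 hours after surgery. MI was induced by permanent ligation of the anterior interventricular artery, and the label of the other group is sham operation. Heart function of all 8 mice was examined by FDG-PET after surgery, under isoflurane and with acipimox, which lowers fatty acids, as pre-medication. Neither group carried a transgene. The labels name the ventricles and no separate infarct zone. In the paper's methods the excised heart was homogenized, and no removal of the atria is described.

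Each heartbeat starts with calcium entry through the L-type channel (Cacna1c), which opens the ryanodine receptor (Ryr2) of the sarcoplasmic reticulum and releases stored calcium onto the myofilaments. Relaxation follows when the SERCA2 pump (Atp2a2) returns calcium to the reticulum, under inhibition by phospholamban (Pln) and sarcolipin (Sln), and when the sodium-calcium exchanger (Slc8a1) removes calcium from the cell. Calsequestrin (Casq2) and the histidine-rich calcium-binding protein (Hrc) hold calcium in the reticulum, junctophilin (Jph2) ties the reticulum to the surface membrane, and the kinase Camk2d phosphorylates several of these proteins.

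The 8 arrays lay on 1 slide in 2 rows, each with 2 MI mice and 2 sham-operated mice. The share of spots well above background was 58.6% to 66.4% per array. The values below are log2 signals scaled with spike-in RNA that was added to each sample before labeling. The tissue was checked with 12 cardiomyocyte markers, and their mean log2 signal ranged from 17.53 to 18.09 in the MI group and from 17.61 to 18.03 in sham-operated mice. Markers of neutrophils moved with the group: 5 of the 6 measured were higher in MI mice, and their mean log2 signal ranged from 13.05 to 13.81 in the MI group and from 11.30 to 11.49 in sham-operated mice. Their part in the results below was not tested. Fewer cells of a type and less RNA per cell cannot be told apart in such bulk RNA. The labels give 1 mouse per array, and their number limits the precision of every value.

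With the spike-in scaling, 0 of the 10 genes passed the test between MI mice and sham-operated mice (limma, adjusted p under 0.05 over all 34038 retained probes). Of all retained probes, 3.73% passed, with 3.38% higher in MI mice and 0.355% lower. Significance analysis of microarrays also called 0 of the 10 genes. In limma, 2 genes, Pln and Casq2, had an unadjusted p under 0.05. The difference (MI minus sham) was positive for 6 genes and negative for 4, and its median was 0.22 on the log2 scale, beside 0.03 over all retained probes. The groups overlapped for each of the 10 genes, whereas 6.61% of the probes with a value on all arrays were higher and 2.39% lower in MI mice with no overlap. Camk2d was called when its probes were averaged, and Pln when the arrays were scaled in another way, as given below.

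**Figure D1:**
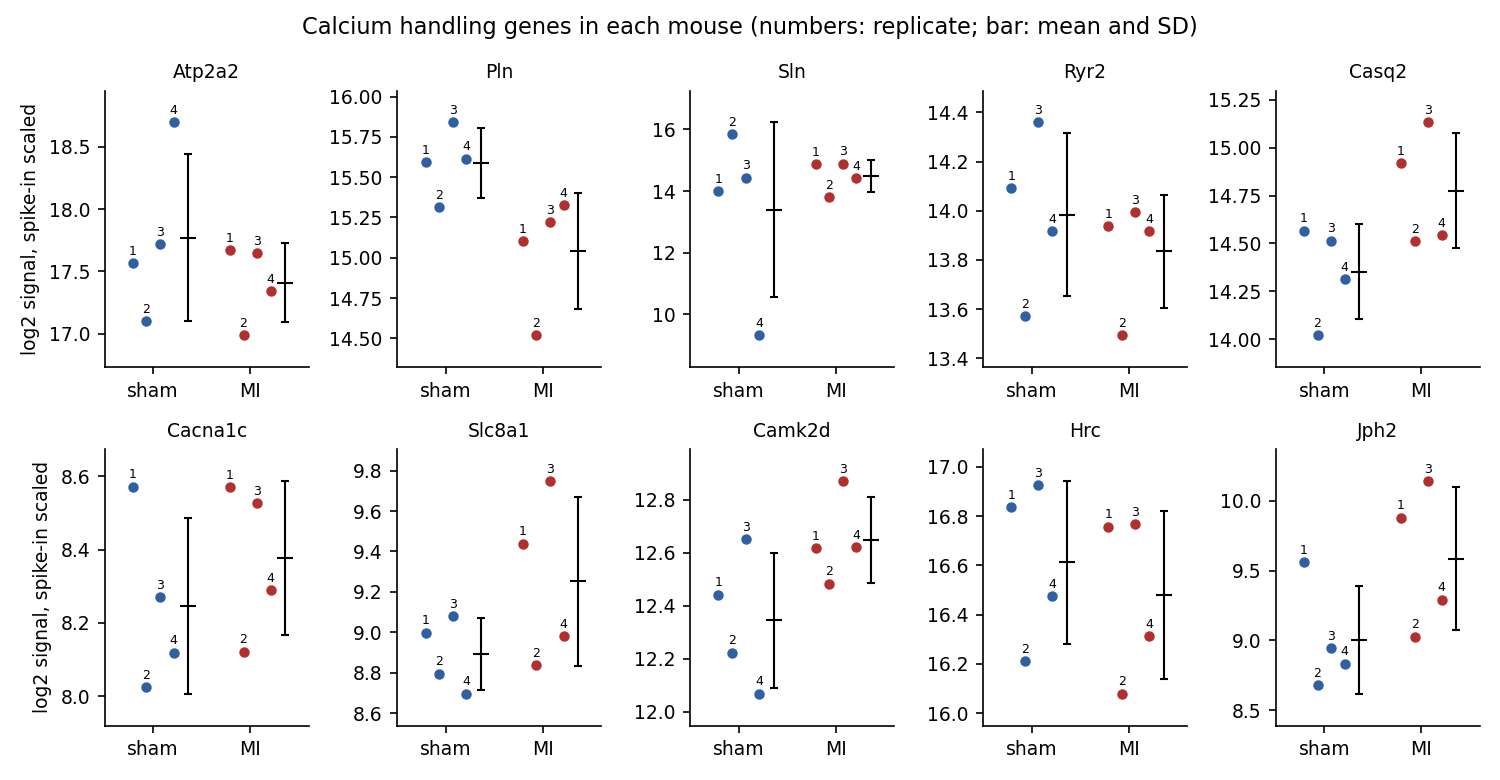
Log2 signal of the 10 calcium handling genes in each mouse, scaled with spike-in RNA, with the sham-operated mice in blue and the MI mice in red. Small numbers are replicate numbers and black bars are the mean and SD of 4 mice. The groups overlap in each panel, and sham-operated mouse 4 stands at 9.32 for Sln and at 18.69 for Atp2a2.

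Atp2a2 encodes the pump that fills the reticulum. Its log2 signal was 17.67, 16.99, 17.64 and 17.34 in MI mice 1 to 4, and 17.57, 17.10, 17.72 and 18.69 in sham-operated mice 1 to 4. Sham-operated mouse 4 lay above all other mice, and the other sham-operated mice lay within or close to the range of the MI mice. The difference was −0.36 ± 0.31 on the log2 scale (SE; limma adjusted p = 0.723), and it was −0.05 without sham-operated mouse 4. A second probe of the same transcript, A_52_P168097, read 14.19, 13.45, 14.34 and 14.07 in MI mice and 13.89, 13.23, 13.57 and 13.38 in sham-operated mice. Its difference had the opposite sign, 0.50 ± 0.21 (SE; limma adjusted p = 0.300). Neither probe passed the test, and the mean of both gave 0.07.

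The disagreement between the 2 probes of Atp2a2 was then compared within each array, a comparison chosen after the values were seen. The log2 ratio of A_52_P168097 to the brighter probe A_51_P451075 was between −3.54 and −3.27 in the MI group and between −5.32 and −3.67 in sham-operated mice. The groups did not overlap, and the difference was 0.86 (exact two-sided permutation p = 0.0286, the smallest p that 4 mice against 4 allow). Within the array rows it was 0.27 in row 1 and 1.45 in row 2, which holds sham-operated mouse 4. Without that mouse the difference was 0.50. Where each probe lies in the transcript was not analysed here.

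Pln encodes phospholamban, which restrains the pump until it is phosphorylated. Its log2 signal was 15.10, 14.52, 15.22 and 15.33 in MI mice, and 15.59, 15.31, 15.84 and 15.62 in sham-operated mice. All sham-operated mice but mouse 2 lay above all MI mice, and mouse 2 lay just below MI mouse 4. Phospholamban RNA was 1.46-fold lower in MI mice, a log2 difference of −0.55 ± 0.18 (SE), with an adjusted p of 0.178 in limma, which missed the threshold. The difference was −0.64 in array row 1 and −0.45 in row 2.

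The call of Pln depended on the scaling. When each array was scaled to the 75th percentile of its signals, Pln read 14.87, 14.84, 14.94 and 15.22 in MI mice and 15.50, 15.67, 15.70 and 15.73 in sham-operated mice. The groups no longer overlapped, and the difference of −0.68 ± 0.12 (SE) passed the test with a limma adjusted p of 0.00643. Under this scaling 17.5% of all retained probes passed, and 8.84% of all retained probes passed and were lower in MI mice, so the background was larger too. With each of the 8 mice left out in turn, the difference under this scaling stayed between −0.77 and −0.64 and passed the test each time. Under the scaling to 6 sarcomere genes it was −0.56 (limma adjusted p = 0.0756), and in the authors' normalized values −0.56 (limma adjusted p = 0.157).

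Sln encodes sarcolipin, a second inhibitor of the pump, which in the mouse heart is an atrial gene. Its log2 signal was 14.87, 13.80, 14.89 and 14.42 in MI mice and 14.00, 15.84, 14.43 and 9.32 in sham-operated mice. Sham-operated mouse 4 was 43.4-fold below the mean of the other sham-operated mice, and sham-operated mouse 2 was the highest of all. The mean in MI mice was 2.14-fold that of the sham-operated mice, with a 95% interval of 0.317 to 14.4 (limma adjusted p = 0.806). On the log2 scale the difference was −0.26 ± 0.45 (SE; limma adjusted p = 0.988) without sham-operated mouse 4. The sign of the difference thus rested on 1 mouse, and it also differed between the array rows, at −0.59 in row 1 and 2.78 in row 2.

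Atrial markers moved with Sln across the mice. Myl7, the atrial regulatory myosin light chain, was at 9.14 in sham-operated mouse 4 and between 12.97 and 14.58 in the other 7 mice. Myl4, the atrial essential light chain, was at 11.90 in that mouse and between 15.22 and 16.83 in the others. Nppa, the atrial natriuretic peptide, was at 15.03 in that mouse and between 16.69 and 18.34 in the others. Of the 4 atrial markers measured only Bmp10 did not stand apart, at 7.77 against 7.79 to 8.21. Myh6, the alpha myosin heavy chain of atria and ventricles, and Myl2, the ventricular regulatory light chain, were at 18.75 and 18.84 in sham-operated mouse 4, inside the range of the other mice. The mean log2 signal of the 4 atrial markers ranged from 13.49 to 14.35 in the MI group and from 10.96 to 14.34 in sham-operated mice. Their part in the Sln values was not tested. How far atria were part of each sample is not known.

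**Figure D2:**
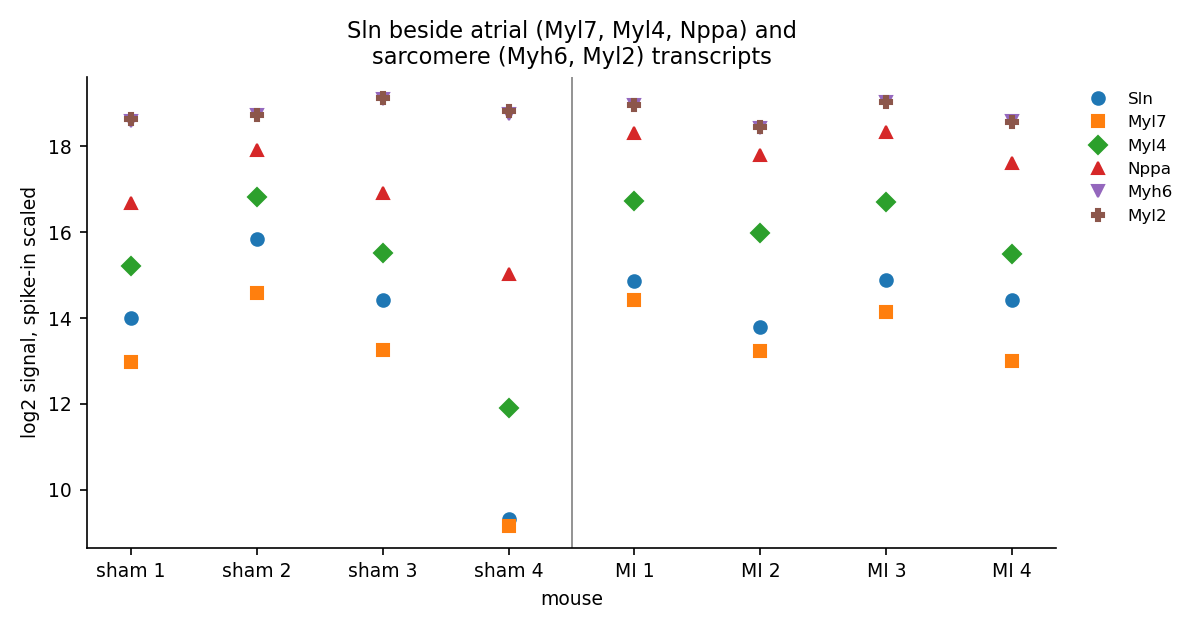
Log2 signal of Sln, of 3 atrial markers and of the sarcomere genes Myh6 and Myl2 in each mouse, scaled with spike-in RNA, with the sham-operated mice to the left of the line. Each point is 1 mouse. Sln, Myl7, Myl4 and Nppa are lowest in sham-operated mouse 4, where Myh6 and Myl2 lie at 18.75 and 18.84.

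Ryr2 encodes the release channel. It read 13.94, 13.49, 13.99 and 13.92 in MI mice and 14.09, 13.57, 14.36 and 13.92 in sham-operated mice. The groups overlapped, with a difference of −0.15 ± 0.18 (SE; limma adjusted p = 0.826). Hrc, which binds calcium beside the release channel, lay between 16.08 and 16.77 in the MI group and between 16.21 and 16.93 in sham-operated mice, with a difference of −0.13 ± 0.21 (SE; limma adjusted p = 0.882). Both intervals include 0 and changes of modest size: the 95% interval of the fold MI over sham was 0.683 to 1.19 for Ryr2 and 0.659 to 1.26 for Hrc.

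Casq2 encodes the main calcium-binding protein of the reticulum. The probe read 14.92, 14.51, 15.13 and 14.54 in MI mice and 14.57, 14.02, 14.51 and 14.31 in sham-operated mice. MI mice 2 and 4 lay within the range of the sham-operated mice and MI mice 1 and 3 above it. The difference was 0.42 ± 0.17 (SE), or 1.34-fold, with a limma adjusted p of 0.275. It was 0.42 in both array rows. Casq2 was called with normexp background correction (limma adjusted p = 0.0426) and with the replicate number as a block (limma adjusted p = 0.0275). With the 75th percentile it was called only when MI mouse 4 was left out (limma adjusted p = 0.0365).

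Jph2 encodes the junctophilin that spans the dyad between surface membrane and reticulum. The log2 signals were 9.88, 9.03, 10.14 and 9.29 in MI mice and 9.56, 8.68, 8.95 and 8.83 in sham-operated mice. All sham-operated mice except mouse 1 lay below all MI mice. The difference was 0.58 ± 0.27 (SE; limma adjusted p = 0.371), and it was 0.84 in the authors' normalized values (limma adjusted p = 0.136). The probe had processed intensities of 203 to 823. When the spike-in RNA set only a scale and no constant, the difference was 0.87 (limma adjusted p = 0.196). With the 75th percentile Jph2 was called only when sham-operated mouse 1 was left out (0.98, limma adjusted p = 0.0320).

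The promoters of Pln and Casq2 are shown because these 2 genes had an unadjusted p under 0.05, in opposite directions. They are the 250 bases before the RefSeq start (GRCm38.p6, plus strand), for Pln at chr10:53337436-53337685 and for Casq2 at chr3:102086165-102086414. Capitals mark matches to a TATA box (TATAAA), to a GATA site (AGATAA with a first T or a last G also allowed) and to the MEF2 box, searched on both strands.
Pln: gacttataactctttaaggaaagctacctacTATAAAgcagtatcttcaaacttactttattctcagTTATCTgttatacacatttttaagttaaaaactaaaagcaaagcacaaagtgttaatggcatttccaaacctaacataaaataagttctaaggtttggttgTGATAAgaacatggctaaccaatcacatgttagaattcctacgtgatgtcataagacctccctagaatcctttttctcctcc
Casq2: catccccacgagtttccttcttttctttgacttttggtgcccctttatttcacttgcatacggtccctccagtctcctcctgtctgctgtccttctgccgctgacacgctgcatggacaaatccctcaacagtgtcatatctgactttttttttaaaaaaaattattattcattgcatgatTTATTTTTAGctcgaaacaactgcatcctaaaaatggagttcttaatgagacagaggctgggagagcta
With bases counted from the start, the TATA box of Pln begins at position −219, and its GATA sites lie at −183 on the minus strand and at −82 on the plus strand. In Casq2 a MEF2 box, the site of muscle transcription factors of that family, begins at −69. Of the 10 genes 8 had a window, in 11 windows for alternative starts. A MEF2 box was found in 1 of these 11 windows, beside 2.92% of 32851 promoters of the same length, and a TATA box in 1, beside 12.4%. GATA sites were found in 4, of Cacna1c, Pln and Slc8a1, beside 26.5%, and the CArG box, the site of serum response factor, in 0, beside 1.47%. A match is a description of the letters only.

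Cacna1c encodes the pore of the L-type channel. Its log2 signal lay between 8.12 and 8.57 in the MI group and between 8.02 and 8.57 in sham-operated mice, with a difference of 0.13 ± 0.14 (SE; limma adjusted p = 0.803). The probe was dim, with processed intensities of 57.4 to 201 before any scaling, which is close to the additive constant of the spike-in scaling (166 to 257). Such a constant holds back differences of dim probes, and the difference was 0.40 when the spike-in RNA set only a scale and no constant, without passing the test (limma adjusted p = 0.618).

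Slc8a1 encodes the exchanger that removes calcium from the cell. Its log2 signal was 9.44, 8.84, 9.75 and 8.98 in MI mice, and sham-operated mice ranged from 8.70 to 9.08. MI mice 1 and 3 lay above all sham-operated mice and MI mice 2 and 4 among them. The difference was 0.36 ± 0.20 (SE; limma adjusted p = 0.460), and 0.56 when the spike-in RNA set no constant (limma adjusted p = 0.358). A second, dimmer probe gave 0.24 ± 0.10 (SE; limma adjusted p = 0.277), and 0.77 with the arrays scaled to the 75th percentile (limma adjusted p = 0.0302).

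Camk2d encodes the delta chain of calcium/calmodulin-dependent kinase II, the main form in the heart. Its brightest probe, A_52_P428745, read 12.62, 12.48, 12.87 and 12.62 in MI mice and 12.44, 12.22, 12.65 and 12.07 in sham-operated mice. These groups overlapped, with a difference of 0.30 ± 0.14 (SE; limma adjusted p = 0.341). The 2 other probes, named by the same transcript, gave groups that did not overlap. A_52_P188261 read 11.15, 10.89, 11.32 and 10.83 in MI mice and 10.30, 9.95, 10.45 and 10.22 in sham-operated mice, a difference of 0.82 ± 0.14 (SE), or 1.76-fold, which passed the test (limma adjusted p = 0.0158). A_55_P1978830 read 11.27, 11.11, 11.53 and 10.90 in MI mice and 10.31, 9.98, 10.51 and 10.23 in sham-operated mice, a difference of 0.95 ± 0.15 (SE), or 1.93-fold, which also passed (limma adjusted p = 0.0122). Both probes were higher in every MI mouse than in every sham-operated mouse. With all 3 probes averaged, Camk2d passed the test too, at 0.69 ± 0.13 (SE; limma adjusted p = 0.0277).

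The probes of Camk2d thus did not change alike, and the ratio of each dimmer probe to the brightest one was compared within arrays, after the values were seen. For A_52_P188261 the log2 ratio was between −1.79 and −1.46 in the MI group and between −2.27 and −1.85 in sham-operated mice, a difference of 0.51. For A_55_P1978830 it was between −1.72 and −1.34 in the MI group and between −2.24 and −1.83 in sham-operated mice, a difference of 0.64. The groups did not overlap for either ratio (exact two-sided permutation p = 0.0286 each, the smallest p possible, and not adjusted for the choice). Both differences had the same sign within each array row, at 0.68 and 0.35 for the first and 0.83 and 0.46 for the second. Unequal change between probes does not show which of them follows the amount of Camk2d RNA.

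**Figure D3:**
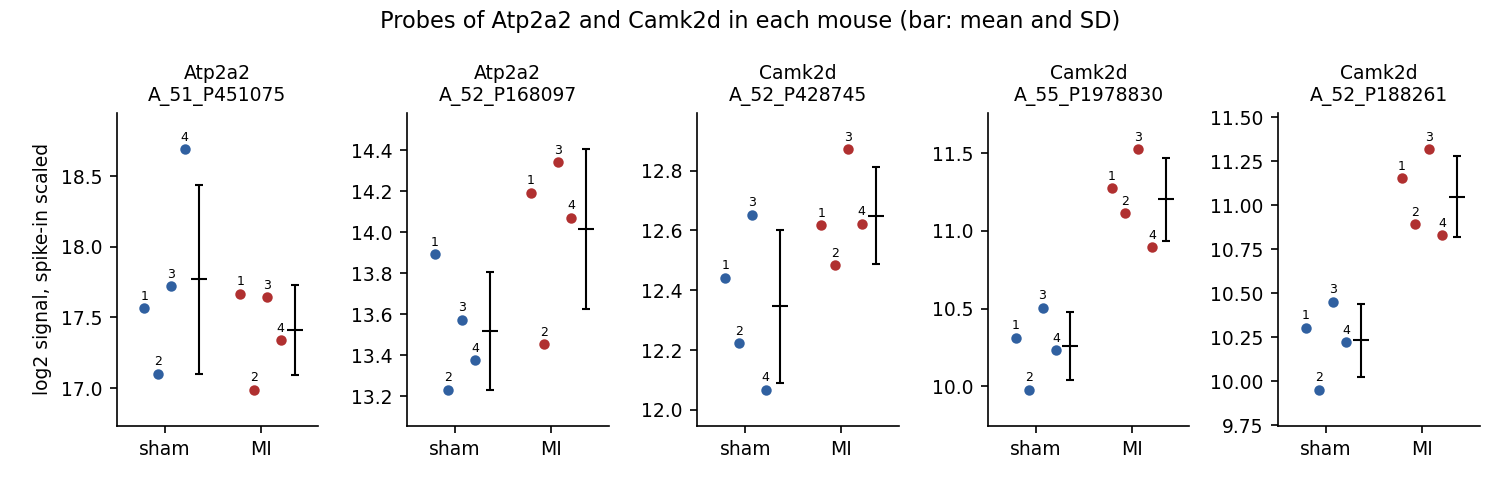
Log2 signal of the 2 probes of Atp2a2 and the 3 probes of Camk2d in each mouse, scaled with spike-in RNA, with the sham-operated mice in blue, the MI mice in red and black bars for the mean and SD of 4 mice. The brightest probe of Camk2d overlaps between the groups, and its 2 dimmer probes do not.

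The scaling between arrays moved the level of all probes together, so the 10 genes were compared under 3 other scalings. With the 75th percentile, the differences were −0.49 for Atp2a2, −0.28 for Ryr2 and −0.27 for Hrc, and their groups, like those of Pln, did not overlap (12.7% of the probes with a value on all arrays were lower with no overlap under this scaling). Of these 4 only Pln passed the test. The median difference of the 12 cardiomyocyte markers was −0.17 with the 75th percentile, beside −0.03 with the spike-in scaling. With the 75th percentile these markers ranged from −0.27 to 0.18, 3 of them were positive, and 0 passed in limma. Under this scaling the Atp2a2 difference was −0.17 without sham-operated mouse 4, and the second Atp2a2 probe had the opposite sign, at 0.37. With the scaling to 6 sarcomere genes (Myh6, Tnnt2, Tnni3, Actc1, Myl2 and Myl3), 0 of the 10 genes passed, beside 9.15% of all retained probes. Under it 4 genes had an unadjusted p under 0.05 in limma, and the groups of Atp2a2, Pln, Ryr2 and Hrc overlapped. In the authors' normalized values 0 of the 10 genes passed, beside 6.03% of the probes, with 2 genes at an unadjusted p under 0.05 in limma. The sign of each of the 10 differences was the same under these 4 scalings with all mice.

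**Figure D4:**
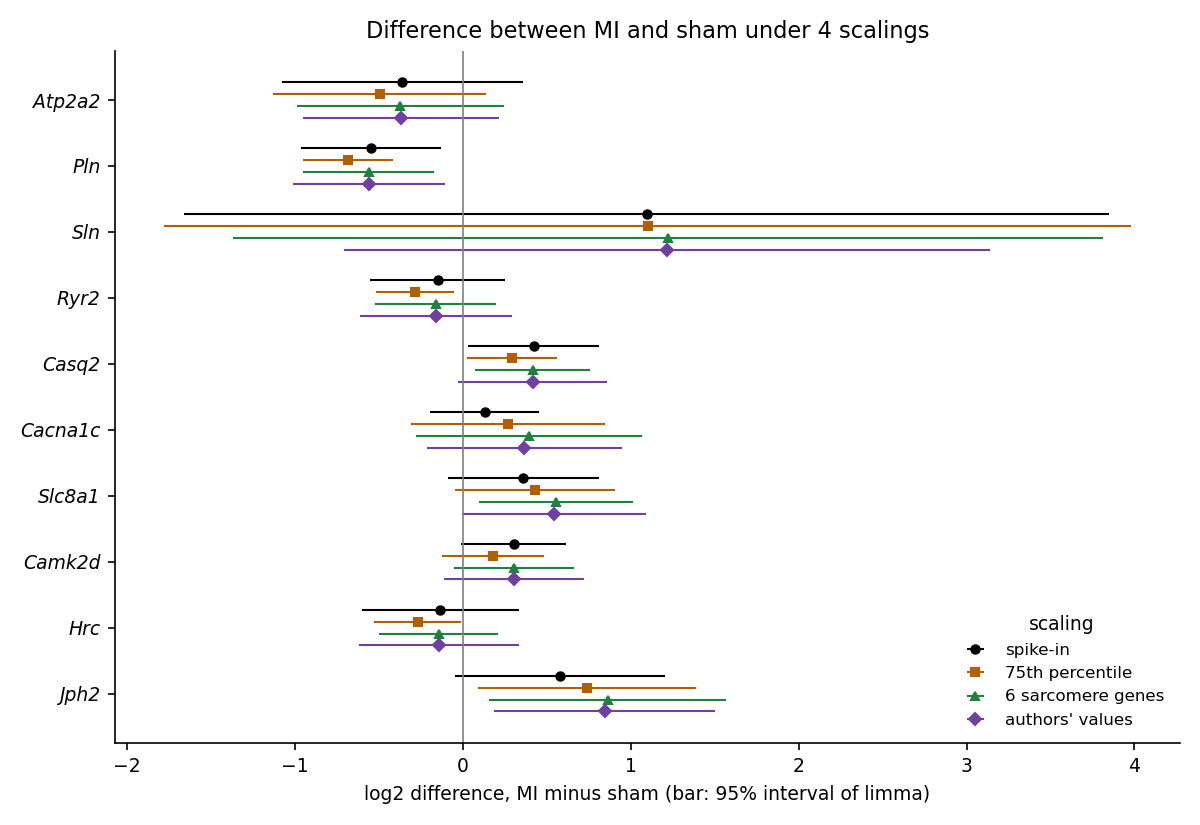
Log2 difference, MI minus sham, of the 10 genes under 4 scalings of the arrays, each with its 95% interval from limma. The intervals of Pln lie below 0 under all 4 scalings, and its adjusted p was under 0.05 with the 75th percentile, at 0.00643. The intervals of Sln are the widest.

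A ratio within an array does not change with a factor applied to the whole array, and 4 such ratios were compared. For probes with signals near the additive constant the ratio still depends on that constant. The log2 ratio of Casq2 to Ryr2, the store against the release channel, was 0.98, 1.02, 1.14 and 0.62 in MI mice and 0.47, 0.45, 0.15 and 0.40 in sham-operated mice. The groups did not overlap, and the difference was 0.57 (exact two-sided permutation p = 0.0286, and 0.114 after Benjamini-Hochberg adjustment over the 4 ratios). It was 0.54 in array row 1 and 0.61 in row 2. The ratio of Slc8a1 to Atp2a2 differed by 0.72 (exact p = 0.0571, adjusted 0.114), with MI mice between −8.36 and −7.89 and sham-operated mice between −10.00 and −8.31. It was 0.35 without sham-operated mouse 4. The Slc8a1 probe had processed intensities of 181 to 583, and the difference was 0.92 when the spike-in RNA set no constant (exact p = 0.0286). With quantile normalization it was 0.70 (exact p = 0.143). The ratio of Pln to Atp2a2 differed by −0.19 (exact p = 0.543, adjusted 0.600), by −0.64 in array row 1 and 0.26 in row 2. With a mouse left out it lay between −0.49, without sham-operated mouse 4, and −0.06, without sham-operated mouse 2. The ratio of Sln to Atp2a2 differed by 1.46 (exact p = 0.600, adjusted 0.600), and by −0.21 without sham-operated mouse 4. No ratio passed after the adjustment.

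Other genes of the calcium cycle were then read from 7 lists by role, with 79 genes reported here, of which 77 had a retained probe. The genes Camk4 and Trpc6 had none. In limma 3 of these genes were higher in MI mice and 0 lower, and the median difference over the 77 genes was 0.05 on the log2 scale, beside 0.03 over all retained probes. The share called was close to the 3.73% of all probes.

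Among 10 subunits and regulators of the L-type channel, 1 was higher and 0 lower. This was Rrad, a small GTPase that holds back the channel, at 13.07, 12.79, 12.98 and 12.93 in MI mice and 11.79, 11.94, 12.57 and 11.92 in sham-operated mice. It rose 1.85-fold (log2 difference 0.89 ± 0.16, SE; limma adjusted p = 0.0213), and all MI mice lay above all sham-operated mice. It was called in 2 of the 8 fits with a mouse left out, those without MI mouse 2 and without sham-operated mouse 3, with adjusted p-values in limma from 0.00144 to 0.0786.

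Among 17 genes of calcium release and the dyad, 1 was higher and 0 lower. Cav3, the caveolin of muscle membranes, read 15.45, 15.40, 15.77 and 15.15 in MI mice and 14.72, 14.57, 14.78 and 14.77 in sham-operated mice. It rose 1.66-fold (0.73 ± 0.13, SE; limma adjusted p = 0.0156) and was called in 6 of the 8 fits with a mouse left out, but not without sham-operated mouse 2 (limma adjusted p = 0.0541) or mouse 4 (limma adjusted p = 0.0512). It also missed the threshold with a spike-in shift that adds no constant (limma adjusted p = 0.0683). Among the same genes Sri, which encodes the calcium-binding protein sorcin, had a difference of 0.62 (limma adjusted p = 0.0788) with groups that did not overlap.

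Among 12 measured calcium-dependent kinases and phosphatases, 1 was higher and 0 lower. Rcan1, an inhibitor of the phosphatase calcineurin and itself a calcineurin target, read 12.78, 12.51, 12.90 and 13.08 in MI mice and 11.51, 11.23, 11.89 and 11.82 in sham-operated mice. It rose 2.31-fold (1.20 ± 0.17, SE; limma adjusted p = 0.00653) and was called in all 8 fits with a mouse left out. The calcineurin chains Ppp3ca, Ppp3cb and Ppp3r1 differed by −0.12, −0.06 and −0.06, and none of them passed the test.

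Of the 3 called genes, significance analysis of microarrays called Rcan1, while Rrad and Cav3 missed its threshold (adjusted values 0.0664 and 0.0541). Among the 17 pumps, exchangers and their regulators, 5 further buffers of the reticulum, 7 genes of store-operated entry and 9 genes of mitochondrial calcium reported here, 0 passed in either direction in limma. Of the genes reported, the one with the largest difference in each of these lists was Atp1b1, a chain of the sodium pump, at 0.47 (limma adjusted p = 0.319), Casq1, the skeletal calsequestrin, at 0.52 (limma adjusted p = 0.0649), Orai1, a pore subunit of the store-operated channel, at 0.38 (limma adjusted p = 0.354), and Smdt1, a subunit of the mitochondrial uniporter, at −0.23 (limma adjusted p = 0.493).

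With the arrays scaled to the 75th percentile, 5 of these 77 genes were higher (Rrad, Cav3, Sri, Casq1 and Rcan1) and 4 lower (Trdn, Itpr1, Camk2n1 and Stim1) in MI mice, beside 17.5% of all retained probes. Rrad, Cav3, Rcan1 and Casq1 were also called with the scaling to sarcomere genes and in the authors' normalized values, and Sri with the scaling to sarcomere genes. Casq1, at 0.52 with the spike-in scaling, differed by 1.00 with the 75th percentile, 1.12 with the sarcomere genes and 1.06 in the authors' values (limma adjusted p = 0.00866, 0.00537 and 0.00628).

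**Figure D5:**
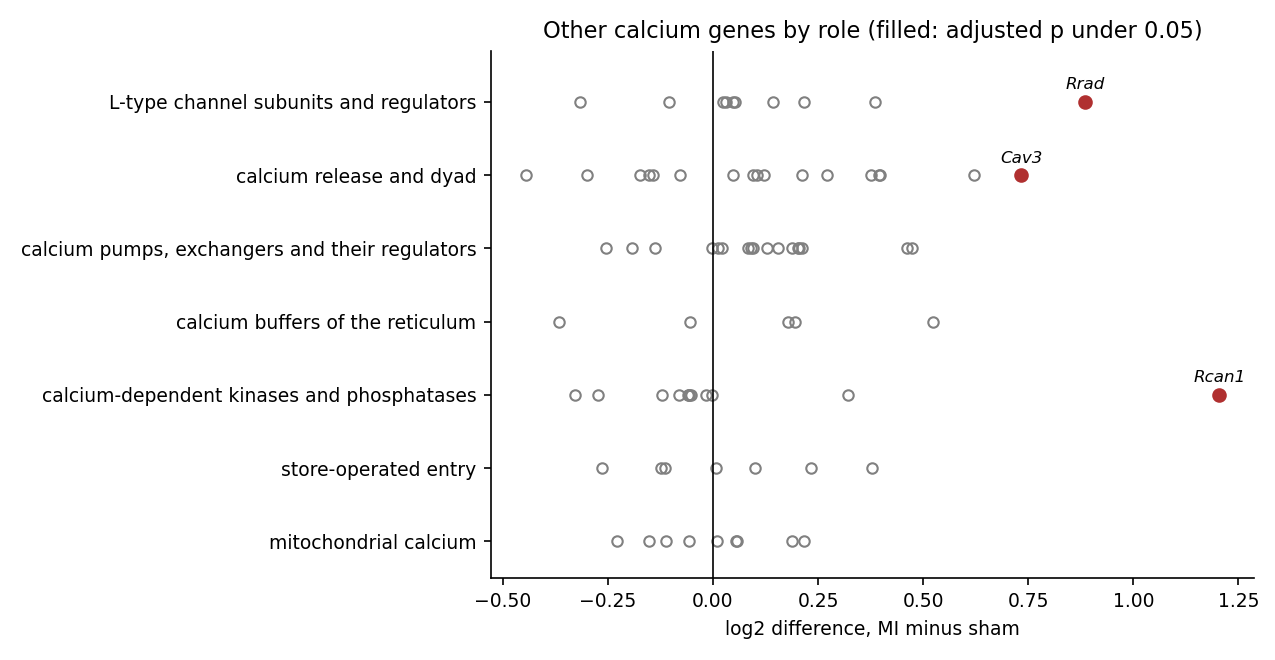
Log2 difference, MI minus sham, of 77 other calcium genes, scaled with spike-in RNA, with 1 row for each list and 1 circle for each gene. Filled circles passed the test (limma adjusted p under 0.05): Rrad, Cav3 and Rcan1, all to the right of 0.

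The 10 genes were set beside the markers of the cells that the heart holds. None of 12 cardiomyocyte markers passed the test, and their differences lay between −0.13 and 0.32. The neutrophil markers S100a8, S100a9, Retnlg, Cxcr2 and Mmp8 were higher in MI mice by 2.99, 2.78, 3.92, 1.49 and 1.32 on the log2 scale, and Csf3r differed by 0.09 without passing. Of 7 measured monocyte and macrophage markers, Cd14 was higher by 2.08 and Ccr2 by 0.59, while 3 of the 7 had negative differences and the median was 0.15. Without sham-operated mouse 4 only 1 of them was called. The mean log2 signal of the 7 markers ranged from 10.78 to 11.39 in the MI group and from 10.54 to 10.95 in sham-operated mice. Of 4 smooth muscle markers, Acta2 was higher by 1.45, and 0 were called in limma without sham-operated mouse 4. Of 7 fibroblast markers 0 passed in limma, but 6 had negative differences and the median was −0.42, with a mean log2 signal from 11.20 to 12.25 in the MI group and from 11.92 to 12.51 in sham-operated mice. Of 6 endothelial markers 0 passed in limma, and the median was 0.20. Of 8 skeletal muscle markers, Mylpf, Myh1, Myh2, Myh4 and Actn3 were not retained, and the other 3 did not pass.

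The genes most like Atp2a2 and Pln across the 8 mice were found by Pearson correlation of the values scaled to the 75th percentile, over 14025 genes, as a description. Those most like Atp2a2 were Pxmp2, Tmem130, Cdk19, F830016B08Rik and Tulp4 (r from 0.982 to 0.992). All 5 stood high in sham-operated mouse 4, as Atp2a2 did: Tmem130 was at 13.32 in that mouse and between 4.06 and 5.37 in the other 7. Those most like Pln were 4930430F08Rik, Arsk, Cnot8, Zbtb10 and Alkal2 (r from 0.987 to 0.996), each lower in all MI mice than in all sham-operated mice. Genes most like Sln, looked up after its values were seen, were Mybphl, Fgf12, Myl7, Myl4 and Dkk3 (r from 0.947 to 0.991), and all were lowest in sham-operated mouse 4. The 8 values share their groups and that mouse, so a correlation does not separate them.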

How the data were processed

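The intensities deposited for each array came from Feature Extraction 11.0.1.1, which had subtracted the local background and removed spatial trends, without normalization between arrays. The deposited log2 values of the authors had been normalized with spike-in probes (limma, vsn) and were used as an alternative.

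Arrays were scaled here by a vsn likelihood fitted to 234 spots of 7 spike-in probes, with additive constants of 166 to 257. Spots of a probe were averaged without outlier flags, and probes well above background on 4 or more arrays were kept (34038). Groups were compared in limma 3.58.1 (R 4.3.3) without covariates, with Benjamini-Hochberg adjustment over all retained probes, and single values by exact two-sided permutation. Python 3.11.15, numpy 2.4.6, scipy 1.17.1, pandas 2.3.3 and matplotlib 3.10.9 were used. Scripts were tested on simulated data.

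The planned scaling to 6 sarcomere genes was made on log2 processed signals. Made after the additive constant, the same shift gave all probes 1 variance in limma, and Sln, Pln and Jph2 were called although the sham-operated mice spread widely for Sln. That fit was discarded because of its variance. The construction was chosen after seeing the data, and the prior degrees of freedom are 4.72 in the fit used.

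The labels do not say whether replicate numbers pair the mice, and the main fit did not pair them. Gene symbols came from RefSeq accessions (GRCm38.p6), which named 26576 of 55681 probes. Genes named are the 10 members, the genes of the other calcium lists that passed the test, the largest difference of each list among the genes reported, the markers and the 5 genes most like Atp2a2 and Pln. Others were chosen after their values were seen. Some genes of the calcium lists are not reported here and are left out of their counts. The members and lists were chosen with earlier results of these data known.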

Additional observations from a re-analysis of the deposited data

Results flagged for a closer look

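In 4 of the 64 groups of 4 mice examined, 1 mouse stood apart by Dixon's test, which flags about 1 in 20 groups by chance. Ryr2 was 13.49 in MI mouse 2, against 13.92 to 13.99 in the other MI mice. Bmp10 was 8.21 in MI mouse 3, against 7.79 to 7.84. The log2 ratio of Pln to Atp2a2 was −3.08 in sham-operated mouse 4, against −1.98 to −1.79. The log2 ratio of the Camk2d probe A_55_P1978830 to the brightest one was −1.72 in MI mouse 4, against −1.37 to −1.34.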

How the results depend on the processing

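The number of the 10 genes called was 1 with the 75th percentile, 1 with quantile normalization, 2 with normexp background correction, 2 with the replicate block (Pln and Casq2) and 1 with the mean of all probes of a gene, and 0 with each mouse left out. The calcium lists, with 3 calls, gave 9, 11, 5, 19 and 11 with the 75th percentile, quantile, sarcomere genes, normexp and the replicate block, 1 with significance analysis of microarrays (Rcan1), and 1 to 7 with a mouse left out (1 without sham-operated mouse 2 or mouse 4, and 7 without MI mouse 2). Over all probes the count of 1271 became 5973 (75th percentile), 5752 (quantile), 3116 (sarcomere genes), 2046 (authors' values), 7057 (normexp), 4935 (replicate block), 636 (significance analysis of microarrays) and 588 to 2270 with a mouse left out. With a fold over 2 as well, 333 became 1444 (75th percentile), 1520 (spike-in shift), 1412 (quantile), 1519 (sarcomere genes), 1013 (authors' values) and 537 (normexp).

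The difference of Sln lay between −0.26 and 1.91 with a mouse left out, reversing to −0.26 without sham-operated mouse 4, and to −0.38 with the 75th percentile as well. Atp2a2 reversed to 0.068 with the mean of its probes. The ratio of Sln to Atp2a2 ranged from −0.21 to 2.49 with a mouse left out, and reversed to −0.21 without sham-operated mouse 4. The ratio of Casq2 to Ryr2, 0.57, had an exact p of 0.125 with the replicate block and 0.0556 with the array row as a block, where fewer permutations exist, and ranged from 0.50 to 0.68 with a mouse left out. The ratio of Slc8a1 to Atp2a2 reached an exact p of 0.0286 with the spike-in shift (0.92) and the authors' values (0.91), and ranged from 0.35 (without sham-operated mouse 4) to 0.91 with a mouse left out. The cause was not tested.

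Whether replicate numbers mark pairs of mice is not known. Same-numbered mice correlated at 0.00105 to 0.364, and 3 of 8 arrays correlated best with their own number. These correlations cannot decide it, because same-numbered mice also shared an array row. Dim probes, Cacna1c among them, have small differences under a large additive constant.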
